A study of Mus musculus with 6 samples.

Results

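The genes described are 10 neuropeptide precursor genes known from cortical interneurons and striatal projection neurons, Npy, Sst, Vip, Cck, Tac1, Tac2, Penk, Pdyn, Adcyap1 and Nts, chosen by name, with earlier results of these data known. They are 10 of the 53801 genes in the count table, and all 10 passed the filter on low counts. RNA-seq had been made from 1 brain hemisphere of each of 3 Bahd1-WT mice (Bahd1+/+) and 3 Bahd1-KO mice (Bahd1-/-), to ask which genes depend on BAHD1, a chromatin protein associated with gene silencing. All 6 mice were C57BL/6 adults aged about 70 weeks. The KO animals lacked the gene in every tissue from conception, having been bred from heterozygous parents, and so a difference cannot be placed in the brain, in a cell type or in a stage of life. A hemisphere pools cortex, striatum, hippocampus, cerebellum and brain stem in a single extract, in which fewer cells of a type and less RNA per cell cannot be told apart.

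Neuropeptides are made as long precursors that enter dense-core vesicles, where prohormone convertases and carboxypeptidase E cut them and other enzymes amidate or sulfate the ends. The released peptides act on G protein-coupled receptors, more slowly and over longer distances than GABA or glutamate, which the same neurons release. In the forebrain, Sst, Npy, Vip, Cck and Tac2 are used to name classes of GABAergic interneurons, while Penk marks the striatal neurons that carry the dopamine receptor Drd2, and Pdyn and Tac1 mark those that carry Drd1.

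Several of these genes are known to be switched on by neuronal activity through cAMP and the factor CREB, which binds the cAMP response element TGACGTCA, and many sites carry only its 5-base part, TGACG or CGTCA on either strand. RefSeq promoter windows (GRCm38.p6) of 300 bases, from 250 before to 50 after a transcription start, were found for 9 of the 10 genes. Penk had no entry. The full element was found in 1 gene, Sst, and in 1.79% of all 32851 windows. The 5-base part, which the full element also contains, was found in 7 of the 11 windows of the 9 genes (Pdyn and Adcyap1 had 2 windows each, and those of Adcyap1 overlap and hold the same site) and in 20.8% of all windows. The 7 windows belonged to 6 genes (Sst, Vip, Cck, Tac1, Adcyap1 and Nts), and it was not in the windows of Npy, Tac2 and Pdyn. The promoters of 4 genes that hold the element are shown. Their differences between genotypes, described below, run from the highest (Cck) to a gene that was lower on average in Bahd1-KO (Vip). Npy, Tac2 and Pdyn, without the element, are not shown, nor are Adcyap1 and Nts. Whether the element goes with the differences between genotypes was not tested. Each line gives the 150 bases before the start on the gene's own strand, with the element in capitals. It begins at -48 in Sst, -47 in Cck, -79 in Vip and -43 in Tac1, counted from -1 just before the start, and Tac1 has a further one at -197, outside the stretch printed.
Sst (chr16:23890845-23890994, minus strand): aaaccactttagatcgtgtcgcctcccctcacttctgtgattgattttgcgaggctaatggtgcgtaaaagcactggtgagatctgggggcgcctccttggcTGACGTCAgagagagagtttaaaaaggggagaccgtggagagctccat
Cck (chr9:121495695-121495844, minus strand): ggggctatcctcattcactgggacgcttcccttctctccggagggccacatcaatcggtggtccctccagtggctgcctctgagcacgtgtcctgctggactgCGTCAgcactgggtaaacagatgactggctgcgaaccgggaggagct
Vip (chr10:5639068-5639217, plus strand): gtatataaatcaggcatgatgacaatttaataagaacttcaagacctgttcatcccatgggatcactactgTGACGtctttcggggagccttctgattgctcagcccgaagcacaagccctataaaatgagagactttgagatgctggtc
Tac1 (chr6:7554911-7555060, plus strand): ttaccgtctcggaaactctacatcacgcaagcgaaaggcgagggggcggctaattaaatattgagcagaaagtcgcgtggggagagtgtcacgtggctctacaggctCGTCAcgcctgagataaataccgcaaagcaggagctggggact

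The libraries held 42297150 to 93557948 counted reads, and the 10 genes had 227 to 37229 reads each in every library. Bahd1 itself (chromosome 2, 118900377 to 118924528, GRCm38) had 1383, 844 and 1099 reads in the WT libraries and 0, 14 and 1 in the KO libraries. In the edgeR quasi-likelihood test, 2 of 23975 genes met the thresholds of the study for a differentially expressed gene (adjusted p under 0.05 and at least 2-fold). Summed marker genes of lung ranged from 2.85 to 122 CPM (the reads of a gene scaled to the size of its library) in WT and from 0.712 to 1.96 in KO hemispheres, with all 10 lower in KO. Those of the choroid plexus ranged from 326 to 424 in WT and from 498 to 1117 in KO, with 4 of 10 genes higher and 6 lower. Summed pituitary markers ranged from 0.0273 to 17.9 CPM in WT and from 0.115 to 39.1 in KO, and those of the cortex, cerebellum, hypothalamus, thalamus and glia overlapped between genotypes. Their part in the results below was not tested.

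Among the genes of cortical interneurons, Cck had the largest log2 fold change in the fit without an offset for GC content, and with that offset, described below, Sst did in size. Cck (chromosome 9, 121489824 to 121495694, minus strand) encodes cholecystokinin, made by basket interneurons and also by many pyramidal cells. Its level was 42.3, 35.4 and 50.7 CPM in WT replicates 1 to 3 and 82.3, 174 and 63.5 CPM in KO replicates 1 to 3, and so all 3 KO mice were above all 3 WT mice. KO replicate 2 had 2.39 times the mean of the other 2 KO mice. The mean was 42.8 ± 7.67 CPM in WT and 107 ± 59.3 CPM in KO (SD, n = 3 each), a log2 fold change of 1.32 (SE 0.35, 95% interval 0.52 to 2.12) with an adjusted p of 0.0647 in the edgeR quasi-likelihood test, just outside the threshold. Without KO replicate 2 the log2 fold change was 0.76, so 1 mouse moved this value by over 1.5 times on the log2 scale. Without KO replicate 1 it was 1.51 (adjusted p = 0.0182 by edgeR), past both thresholds, in a fit in which 16.8% of all genes passed them.

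Tac2 (chromosome 10, 127724478 to 127731768, plus strand), the precursor of neurokinin B, came next. It was the least abundant of the 10 genes in WT brains, at 4.46, 3.68 and 5.43 CPM, against 9.10, 12.8 and 6.44 CPM in KO. All 3 KO values again lay above all 3 WT values. The mean was 4.52 ± 0.877 CPM in WT and 9.45 ± 3.19 CPM in KO. The log2 fold change was 1.06 (SE 0.29, interval 0.40 to 1.72), and its adjusted p of 0.0650 by edgeR also missed the threshold. Without KO replicate 2 the log2 fold change was 0.77, and without KO replicate 1 it was 1.12 (adjusted p = 0.0300 by edgeR), past both thresholds as for Cck.

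Npy and Sst were higher on average in KO hemispheres with ranges that overlapped, although with libraries scaled by total counts alone all KO mice lay above all WT mice in Npy too. Npy (chromosome 6, 49822710 to 49829507, plus strand) encodes neuropeptide Y, found in several interneuron classes, among them many that also make somatostatin. It measured 35.7, 35.2 and 41.0 CPM in WT and 52.4, 65.8 and 39.1 CPM in KO, where only replicate 3 fell within the WT range. The log2 fold change was 0.49 (SE 0.21, interval 0.015 to 0.97), with an unadjusted p of 0.0445 and an adjusted p of 0.148 in the edgeR test. Without KO replicate 2 it was 0.29 (adjusted p = 0.306), and the unadjusted p was then 0.111 in the same edgeR test. Sst (chromosome 16, 23889573 to 23890958, minus strand) encodes somatostatin, the inhibitory peptide of dendrite-targeting interneurons. It measured 57.0, 76.1 and 73.4 CPM in WT and 82.4, 161 and 57.7 CPM in KO, so that KO replicate 2 stood 2.30 times above the mean of the other KO mice while replicate 3 was close to the lowest WT mouse. The log2 fold change of Sst was 0.54 (SE 0.34, interval -0.23 to 1.31, adjusted p = 0.286 by edgeR), and without KO replicate 2 it was 0.02.

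Vip (chromosome 10, 5639218 to 5647617, plus strand) encodes vasoactive intestinal peptide, the signal of interneurons that inhibit other interneurons. Its 3 WT values were 34.5, 39.8 and 45.1 CPM and its KO values 53.3, 24.6 and 24.7 CPM. KO replicate 1 was thus the highest of all 6 mice and the other 2 KO mice were the lowest, with a log2 fold change of -0.22 (SE 0.31, interval -0.92 to 0.48, adjusted p = 0.636 by edgeR). The KO mean of 34.2 ± 16.5 CPM therefore describes none of the 3 KO mice, against 39.8 ± 5.31 CPM in WT. Without KO replicate 1, the log2 fold change of Vip was -0.66 (adjusted p = 0.0278 in the same test), which is past the p threshold but short of the 2-fold one. In that fit 4 of the 10 genes passed the p threshold. Of all genes, 16.8% passed both thresholds in it, and so at least that share passed the p threshold.

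**Figure D1:**
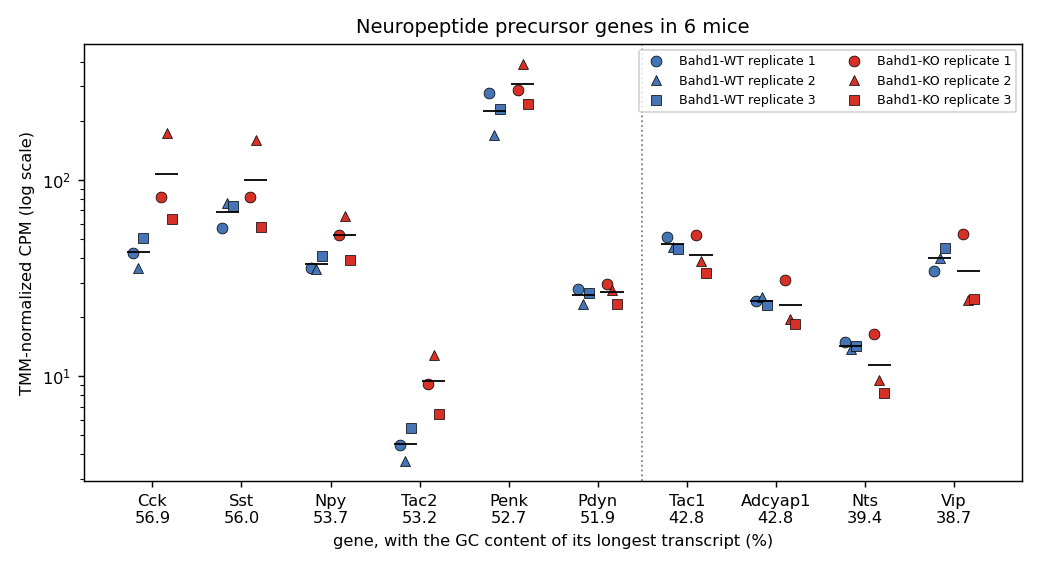
Level of each of the 10 neuropeptide genes in each mouse, in CPM on a log axis, with 1 marker shape per replicate, horizontal bars at the genotype means, and genes ordered by GC content with a dotted line between the 6 richer and the 4 poorer in GC. Cck and Tac2 have every KO mouse above every WT mouse, Cck, Sst, Npy, Tac2 and Penk peak in KO replicate 2, and Vip, Nts, Adcyap1, Tac1 and Pdyn peak in KO replicate 1.

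Penk, Pdyn and Tac1 are the genes of the striatal projection neurons. Penk (chromosome 4, 4133531 to 4138819, minus strand) encodes the enkephalin precursor and was the most abundant of the 10 genes. It measured 277, 169 and 229 CPM in WT and 286, 391 and 244 CPM in KO, with the lowest KO mouse below the highest WT mouse. Its log2 fold change was 0.45 (SE 0.24, interval -0.09 to 0.98, adjusted p = 0.216 by edgeR). It was 0.23 without KO replicate 2 and 0.28 without WT replicate 2. The noncoding gene A830012C17Rik overlaps Penk on the other strand at 0.0460 to 0.155 CPM.

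Pdyn and Tac1 differed by less than the spread between mice. Pdyn (chromosome 2, 129686565 to 129699844, minus strand), the dynorphin precursor, measured 27.7, 23.3 and 26.7 CPM in WT and 29.6, 27.6 and 23.3 CPM in KO. Its log2 fold change of 0.05 (SE 0.17) had an interval of -0.35 to 0.44, which holds neither a doubling nor a halving. Pdyn lies on the same chromosome as Bahd1.

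Tac1 (chromosome 6, 7554879 to 7565834, plus strand) encodes the precursor of substance P and neurokinin A. It measured 51.4, 45.4 and 44.4 CPM in WT and 52.2, 38.8 and 33.4 CPM in KO, with 1 KO mouse above the WT range and the other 2 KO mice below it. The log2 fold change was -0.18 (SE 0.20, interval -0.63 to 0.26, adjusted p = 0.534 by edgeR).

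Adcyap1 and Nts, which are made by scattered cells in cortex, thalamus, hypothalamus and amygdala, had the same order of KO mice as Tac1. Adcyap1 (chromosome 17, 93199017 to 93206537, plus strand) encodes PACAP, an activator of adenylate cyclase. It measured 24.1, 25.4 and 23.2 CPM in WT and 30.8, 19.5 and 18.5 CPM in KO, a log2 fold change of -0.08 (SE 0.22, interval -0.59 to 0.43, adjusted p = 0.829 by edgeR). Nts (chromosome 10, 102481756 to 102490486, minus strand) encodes neurotensin and neuromedin N. It measured 14.9, 13.7 and 14.3 CPM in WT and 16.4, 9.52 and 8.20 CPM in KO, a log2 fold change of -0.33 (SE 0.27, interval -0.95 to 0.28, adjusted p = 0.402). The 3 WT mice lay close together in Nts, and the KO mice lay on both sides of them. Without KO replicate 1 the log2 fold change of Nts was -0.66 (adjusted p = 0.0313 by edgeR), also short of 2-fold. As for Vip, this was the fit in which 16.8% of all genes passed both thresholds.

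None of the 10 genes met both thresholds of a differentially expressed gene in the edgeR test, which 0.00834% of all genes tested met, 0.00417% with higher and 0.00417% with lower means in KO. At an unadjusted p under 0.05 there were 3 of 10, Cck, Tac2 and Npy, all with higher means in KO, beside 31.8% of all genes in either direction and 19.9% with higher means. At an adjusted p under 0.1 there were 2 of 10, Cck and Tac2, beside 19.5% of all genes, 14.7% with higher and 4.77% with lower means. The KO mice lay wholly above the WT mice in those 2 genes, beside 20.6% of all genes, and wholly below in 0 of 10, beside 19.3%. None of these counts lay more than 2 genes from what the share of all genes would give in a group of 10. The voom test called 0 of the 10 genes. DESeq2's Wald test, the kind used by the study, called 2 of the 10 genes, again Cck and Tac2, beside 11.5% of all genes. The median log2 fold change over the 10 genes was 0.25, with 6 positive and 4 negative, against a median of -0.06 over all genes tested, of which 46.6% were positive.

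**Figure D2:**
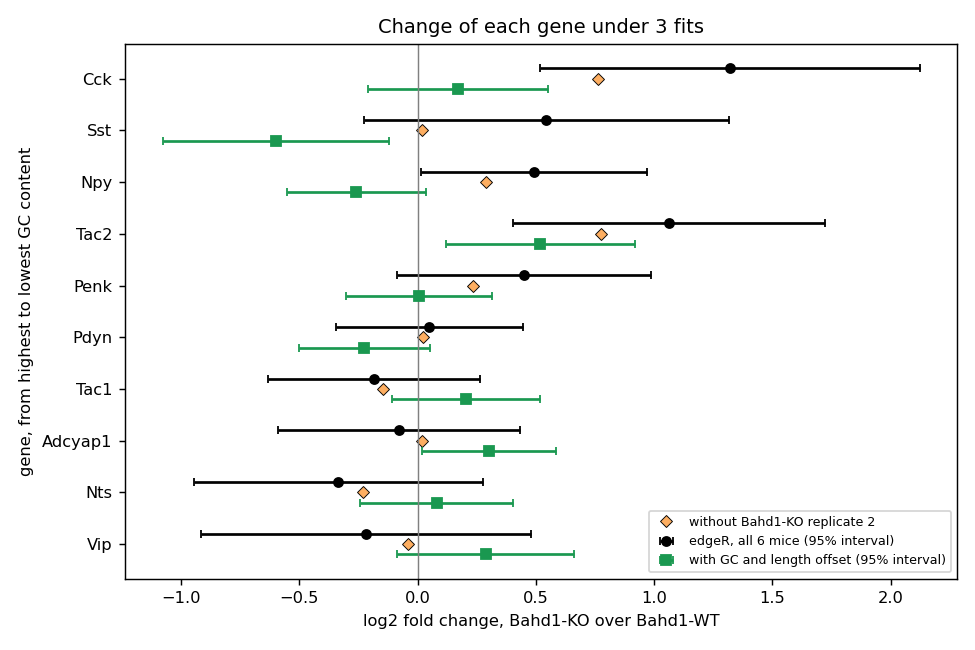
Log2 fold change of Bahd1-KO over Bahd1-WT for each of the 10 neuropeptide genes, from the edgeR test (black, with 95% intervals), from the same test with an offset for GC content and length (green, with 95% intervals) and from the test without KO replicate 2 (orange diamonds). In the plain test Cck and Tac2 lie farthest above 0 at 1.32 and 1.06, and with the offset they are at 0.17 and 0.52 while Sst is at -0.60.

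The highest of the 6 mice was a KO mouse for each of the 10 genes, but not the same mouse. It was KO replicate 2 in 5 genes (Cck, Sst, Npy, Tac2 and Penk), beside 33.3% of all genes tested (30.8% were lowest in that mouse, as was Vip), and KO replicate 1 in the other 5 (Pdyn, Tac1, Adcyap1, Nts and Vip), beside 9.18%. KO replicate 3 was the lowest of the 6 mice in 4 genes (Pdyn, Tac1, Adcyap1 and Nts), beside 12.1% of all genes. The ratio of KO replicate 2 to the mean of the other KO mice ran from 2.39 in Cck, 2.30 in Sst, 1.65 in Tac2, 1.48 in Penk and 1.44 in Npy, through 1.04 in Pdyn and 0.907 in Tac1, down to 0.792 in Adcyap1, 0.775 in Nts and 0.630 in Vip. This contrast is between mice of a single genotype.

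With Npy as the exception, the order of these ratios was that of the GC content of the transcripts. The 6 genes with a GC content of 51.9 to 56.9% (Cck, Sst, Npy, Tac2, Penk and Pdyn) had log2 fold changes of 0.05 to 1.32 between genotypes, with a median of 0.52. The 4 genes with 38.7 to 42.8% (Vip, Nts, Tac1 and Adcyap1) had log2 fold changes of -0.33 to -0.08, with a median of -0.20. Across the 10 genes, as a description, Spearman's rho between log2 fold change and GC content was 0.94. Across 13430 expressed genes of the same 6 libraries it was 0.86, and it was also 0.86 between GC content and the ratio of KO replicate 2 to the other KO mice.

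An offset for GC content and length was then fitted in each library to expressed genes. The correlation over expressed genes was then -0.0036, which follows from how the offset is fitted and is not a result. With the offset 7 of the 10 neuropeptide genes took the other sign. The log2 fold change was 0.17 in Cck, 0.52 in Tac2, 0.01 in Penk, -0.26 in Npy, -0.60 in Sst and -0.23 in Pdyn. It was 0.29 in Vip, 0.30 in Adcyap1, 0.20 in Tac1 and 0.08 in Nts. The 7 that took the other sign were these 4 with Npy, Sst and Pdyn. Under the offset Tac2 and Adcyap1 were higher in KO and Sst lower at an unadjusted p under 0.05, of which the background was 21.4% of all genes, 9.88% higher and 11.5% lower. Their adjusted p-values in edgeR's quasi-likelihood test were 0.141, 0.207 and 0.150. No gene of the 10 then had KO mice wholly above or below the WT mice, beside 26.2% of all genes. The part of base composition in the differences between genotypes was not tested beyond this refit, in which Tac2 had the highest value and 0.0167% of all genes met both thresholds.

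**Figure D3:**
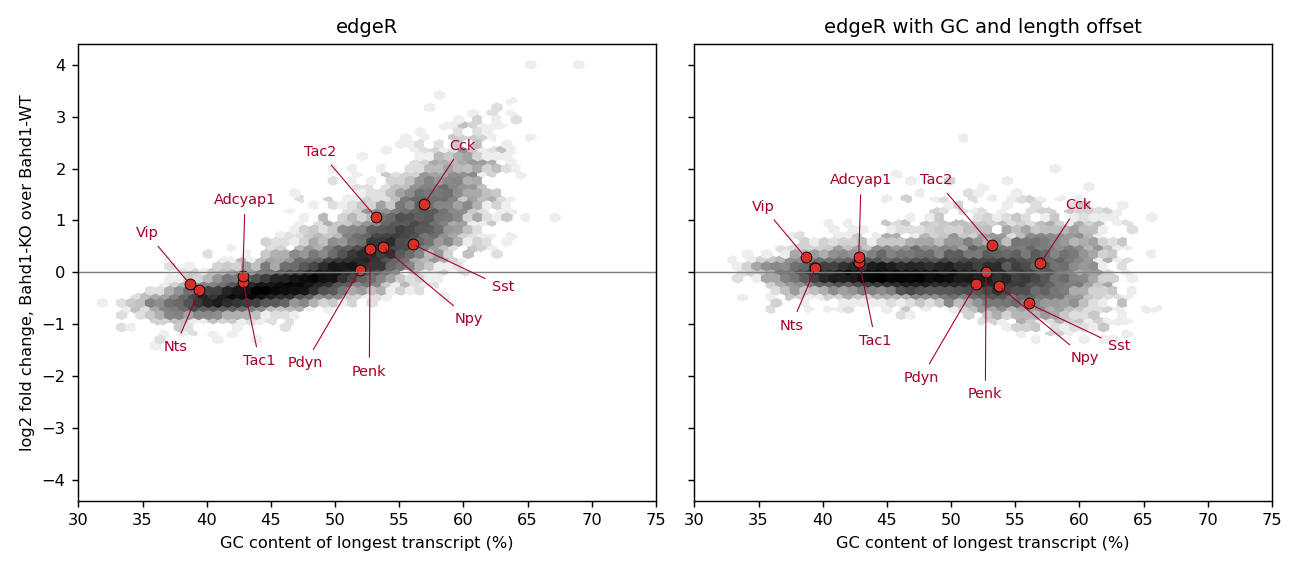
Log2 fold change of Bahd1-KO over Bahd1-WT against the GC content of the longest transcript in percent, for expressed genes (grey hexagons, darker for more genes) and the 10 neuropeptide genes (red), without an offset on the left and with the GC and length offset on the right. On the left the neuropeptide genes run along the slope of all genes, from Nts at -0.33 and 39.4% to Cck at 1.32 and 56.9%. On the right all 10 lie between -0.60 and 0.52, and the lack of slope among the expressed genes follows from fitting the offset to them.

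In RPKM, which divides CPM by the exon length in kilobases, the WT levels spanned from Penk at 138 ± 33.0 to Tac2 at 3.28 ± 0.636 (SD, n = 3). Between them stood Sst at 95.5 ± 14.4, Npy at 65.9 ± 5.67, Cck at 32.8 ± 5.88, Tac1 at 13.8 ± 1.11, Vip at 11.7 ± 1.56, Nts at 11.5 ± 0.478, Pdyn at 8.98 ± 0.798 and Adcyap1 at 6.41 ± 0.301 RPKM. Of neighbours in this order, Penk and Sst, Tac1 and Vip, and Vip and Nts had overlapping ranges over the WT mice, and the others did not. With the length of the longest transcript the WT order was the same, but the overlapping neighbours were Npy and Cck, and Nts and Pdyn, in place of these. In KO mice the order of mean RPKM had the same first 6 genes, from Penk at 188 to Vip at 10.1, followed by Pdyn at 9.29, Nts at 9.11, Tac2 at 6.86 and Adcyap1 at 6.08. Tac2 was the last of the 10 genes in KO replicates 1 and 3 and the seventh in KO replicate 2, where Cck also stood above Npy, at 134 against 116 RPKM. These places depend on the length used. With the longest transcript in place of all exons, Tac2 ranked 9, 6 and 8 in KO replicates 1 to 3, and Cck stood above Npy in all 3 KO mice.

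The receptors of these peptides were measured in full, with 24 of 24 genes tested. By edgeR 0 of 24 met the thresholds (0 by voom, 4 by DESeq2, which called 11.5% of all genes) and 9 had an unadjusted p under 0.05, 8 with higher and 1 with lower means in KO (beside 19.9% and 12% of all genes). Under the GC and length offset 2 had higher and 3 lower means at that p (beside 9.88% and 11.5% of all genes). The median log2 fold change of the 24 was 0.24, or -0.02 under the offset, against -0.06 over all genes in both fits. The somatostatin receptors held the 3 lowest p-values and had higher means in KO throughout. Sstr5, at 0.402 ± 0.116 CPM in WT and 1.08 ± 0.305 in KO, had a log2 fold change of 1.43. Sstr4, at 0.700 ± 0.183 and 2.72 ± 1.46 CPM, had 1.96, and Sstr2 had 1.03 from 6.50 ± 1.71 to 13.2 ± 2.95 CPM. The adjusted p of these 3 receptors was 0.0634 by edgeR. With the offset they were at 0.49, 0.46 and 0.56, while Sstr1 went from 1.11 to -0.15 and Sstr3 from 0.50 to -0.44, so that the family no longer shared a sign.

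For vasoactive intestinal peptide, Vipr1 had a log2 fold change of 0.72 (adjusted p = 0.0688 by edgeR, -0.01 with the offset) and Vipr2 of 0.25 (0.21 with the offset). Adcyap1r1, the specific PACAP receptor and an abundant one at 190 CPM in WT and 189 in KO, had -0.01. With the offset it stood at -0.31, with all KO mice below all WT mice (adjusted p = 0.198 by edgeR). For neurotensin the values were 0.83 in Ntsr1, 0.39 in Ntsr2 and 0.11 in Sort1, and with the offset -0.0098, 0.037 and -0.036. For cholecystokinin they were -0.18 in Cckar and 0.39 in Cckbr, the main brain receptor, and with the offset -0.084 and -0.46. The kappa opioid receptor Oprk1, which dynorphin activates, was the gene with a lower mean and an unadjusted p under 0.05 without the offset. It stood at 20.1 CPM in WT and 13.6 in KO with all KO mice below all WT mice (log2 fold change -0.56, adjusted p = 0.147 by edgeR, -0.07 with the offset). The enkephalin receptors Oprd1 and Oprm1 stood at 0.23 and -0.0013, and with the offset at -0.43 and 0.12. Oprd1 then had all KO mice below all WT mice (adjusted p = 0.226 by edgeR). The tachykinin receptors Tacr1, Tacr2 and Tacr3 stood at -0.09, 0.64 and -0.38, the last being the receptor of neurokinin B, and with the offset at -0.11, 0.068 and -0.11. Among neuropeptide Y receptors, Npy1r, Npy2r and Npy5r stood at -0.31, -0.38 and -0.51, and with the offset at 0.053, 0.025 and -0.081. Npy6r, at 0.0354 CPM in WT and 0.0147 in KO, stood at -1.15 and with the offset at -0.55. Npy4r, with 4 to 25 reads in each library, stood at 0.0680 CPM in WT and 0.210 in KO (log2 fold change 1.64, adjusted p = 0.0738 by edgeR, 1.71 with the offset).

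**Figure D4:**
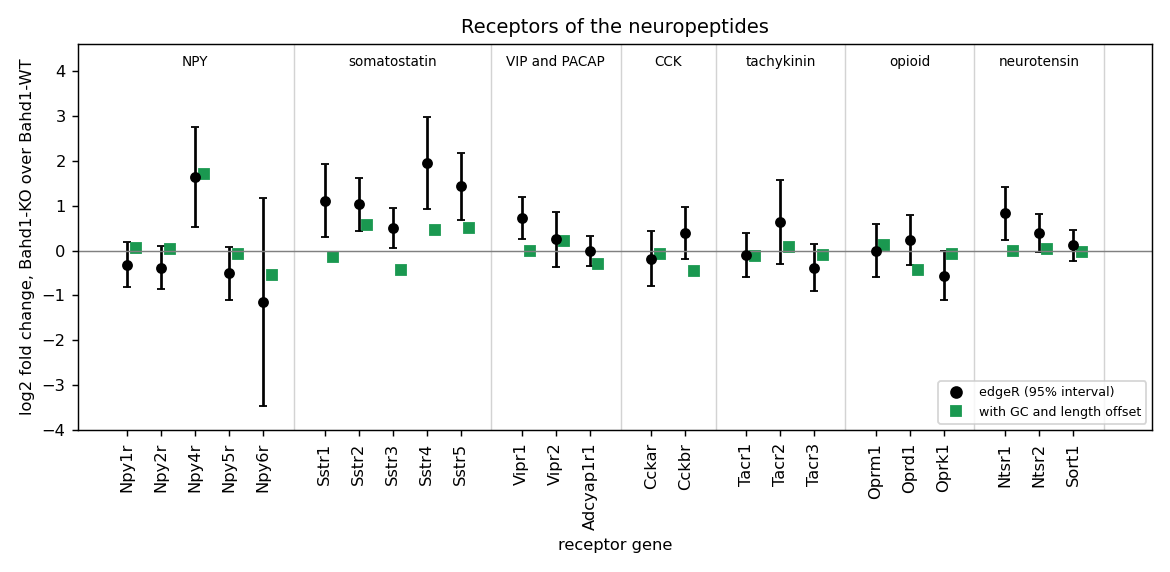
Log2 fold change of Bahd1-KO over Bahd1-WT for the 24 receptor genes, grouped by the peptide they bind, from the plain edgeR fit (black, with 95% intervals) and from the fit with the GC and length offset (green, values only). The somatostatin receptors stand between 0.50 and 1.96 without the offset and between -0.44 and 0.56 with it.

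Related and other neuropeptide precursors (among them Gal, Crh, Scg2 and Cartpt, which belong to other families), and the machinery that makes and removes the peptides, were also without a call by edgeR (0 of 8 of these precursors, of 10 listed, and 0 of 19 processing genes, as by voom, against 3 of each by DESeq2). Ppy had no reads and Pyy too few to test. At an unadjusted p under 0.05 there were 3 of these precursors, all with higher means in KO (beside 19.9% of all genes) and with no overlap between genotypes (beside 20.6%), and DESeq2's calls stood beside 11.5%. All 8 tested had a positive log2 fold change (beside 46.6% of all genes), with a median of 1.12, or 0.086 with the offset. Of these, Scg2 stood at 0.02, Tac4 had 2 to 8 reads in each library, and Pomc had 1.54 (SE 1.09). The reads of Pomc were 171, 22 and 13 in WT and 3, 285 and 230 in KO, with KO mice on both sides of the WT mice. With the offset 2 of the 8 were higher and 0 lower at an unadjusted p under 0.05 (beside 9.88% and 11.5% of all genes). Cartpt, an appetite-regulating peptide, stood at 5.27, 4.45 and 5.51 CPM in WT and 10.3, 20.1 and 8.65 CPM in KO (log2 fold change 1.36, adjusted p = 0.0634, 0.70 with the offset). Pnoc, the nociceptin precursor and a relative of Penk and Pdyn, stood at 3.18, 2.88 and 2.97 CPM in WT and 4.67, 11.7 and 5.18 CPM in KO (1.25, adjusted p = 0.0675, 0.93 with the offset). Cort, a close relative of Sst, had 1.43 (adjusted p = 0.0959) and -0.06 with the offset. As in Cck and Sst, KO replicate 2 was the highest mouse in all 3.

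Of the 19 processing genes, 5 had higher and 1 lower means at an unadjusted p under 0.05 (beside 19.9% and 12% of all genes). With the offset these counts were 5 and 3 (beside 9.88% and 11.5%). The median log2 fold change without the offset was -0.06. Thop1, an endopeptidase that degrades neurotensin and other short peptides, had 2.60, Furin, a convertase of the secretory pathway, had 1.53, and Pcsk1n, the inhibitor of prohormone convertase Pcsk1, had 6.59. Their adjusted p-values were 0.0634, 0.0634 and 0.0638 by edgeR. With the offset Thop1 was at 1.03 and Furin at 0.61. Both were highest in KO replicate 2, where Thop1 stood at 48.6 CPM against 9.22 and 14.6 in the other KO mice, and Furin at 36.3 against 11.3 and 20.8. Pcsk1n rested mainly on KO replicate 2, with 162, 83 and 95 reads in WT and 149, 39347 and 570 in KO, and with the offset it was at 4.99.

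The cells that carry the 10 genes were looked at through their own markers. Of 20 interneuron genes and 16 tested striatal genes of 18 listed, 0 were called by edgeR and by voom and 1 of each list by DESeq2, with 4 higher and 2 lower interneuron genes and 5 higher and 3 lower striatal genes at an unadjusted p under 0.05. The shares of all genes were 19.9% higher and 12% lower at that p, and 11.5% called by DESeq2. With the offset 2 interneuron genes were higher and 2 lower at that p, and 0 striatal genes were higher and 4 lower. The shares of all genes were then 9.88% and 11.5%. The median log2 fold changes were -0.06 for interneuron and 0.40 for striatal genes, which became -0.10 and -0.15 with the offset. The lowest p-values among interneuron genes were those of Slc32a1, the vesicular GABA transporter (1.87, adjusted p = 0.0643, 0.16 with the offset), Pvalb (0.52, 0.40 with the offset) and Lamp5 (0.44, 0.32 with the offset). Among striatal genes they were those of Rasd2 (0.91, adjusted p = 0.0647), Adcy5 (0.91) and Drd1 (-0.54), which stood at 0.08, -0.36 and -0.33 with the offset. Drd1, a receptor of the neurons that make Pdyn and Tac1, was at 44.9 CPM in WT and 30.8 in KO with no overlap, while Pdyn and Tac1 overlapped.

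The profiles of the 10 genes over the 6 mice were compared by correlation. Pearson's r of log2 CPM was 0.98 between Cck and Tac2, 0.97 between Cck and Npy and 0.83 between Cck and Sst, and it was 0.92 between Vip and Adcyap1 and 0.91 between Vip and Nts, but -0.41 between Cck and Vip. The mice share libraries and depth with every gene, so these values are descriptions over 6 points. The most alike of 13397 other expressed genes was Prdx2 for Cck (r = 0.998), Hira for Penk (0.998), Fkbp1a for Vip (0.997), Nptx2 for Npy (0.996), Bod1 for Tac2 (0.995), Abhd17c for Adcyap1 (0.995), Kcnip1 for Tac1 (0.995), H2afz for Sst (0.994), Zcchc4 for Nts (0.989) and Tiam2 for Pdyn (0.983). Each of these is the highest of 13397 values over 6 points, and how high an unrelated gene would reach in such a search was not tested. The number of genes with an r over 0.95 was 776 for Cck, 339 for Tac2 and 7 for Pdyn, and so a profile like that of Cck was common among expressed genes and one like that of Pdyn was not.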

How the data were processed

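RNA-seq of 6 brain hemispheres was used, grouped by the genotype labels into 3 Bahd1-WT and 3 Bahd1-KO mice. The authors deposited whole-number counts per gene, without normalization, as featureCounts 1.4.6-p3 gave them over exons by strand. The sources name more than 1 version of cutadapt for trimming and both STAR 2.5.0a and Tophat2 for alignment to GRCm38. The embryonic samples were not analysed here, and 0 columns belonged to other samples. Depth was 42297150 to 93557948 reads per library.

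Genes with at least 10 reads over the 6 libraries (23975) were tested with edgeR 4.0.16 in R 4.3.3 (TMM factors, quasi-likelihood test, genotype as the only factor, Benjamini-Hochberg adjustment over all genes tested), following the thresholds of the study (adjusted p under 0.05, 2-fold). All p-values and intervals of log2 fold changes come from that fit unless another tool is named. With 3 mice each, an exact permutation test cannot go below p = 0.1. CPM used TMM-scaled libraries, and RPKM the union of exons. GC content was that of the longest transcript. The offset was a spline of log2 CPM on GC content (5 degrees of freedom) and log length (3), fitted per library to 13251 expressed genes. Alternatives were other scaling factors, DESeq2 1.42.0, limma 3.58.1 (voom), other filters, leaving out each mouse, the replicate block and the offset. The scripts were tested on simulated data.

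The 10 genes and the gene lists were chosen with earlier results of these data known. Beside the 10, the text names the 3 genes of lowest unadjusted p in each list, the receptors of the peptides, and for each of the 10 the expressed gene of highest Pearson r. A few others (the overlapping gene, other listed precursors, genes without enough reads) are named for completeness.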

Additional observations from a re-analysis of the deposited data

How the results depend on the processing

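With TMM factors edgeR called 2 of all genes and 0 of the 10 neuropeptide genes. With total counts alone it called 2007 genes (1889 higher and 118 lower), of which 2 were neuropeptide genes (Cck and Tac2), 2 of the other precursors, 3 receptors, 3 processing genes and 1 interneuron gene. In the same order, DESeq2 without a prior called 2761 (2508 higher and 253 lower), 2, 3, 4, 3 and 1, and 1 striatal gene. DESeq2 with the prior called 2522, 2, 3, 3, 2, 1 and 1, and edgeR without a filter beyond 1 count called 2770, 2, 3, 4, 4, 1 and 1. In each of these the 2 neuropeptide genes were Cck and Tac2. The voom fit called 1 gene, and DESeq2's size factors, upper-quartile factors, robust shrinkage and the other filter called 2. The KO mice lay wholly above the WT mice in 3 of the 10 genes with total counts (Npy, Cck and Tac2) and in 2 with the other factors. Upper-quartile factors put the median of all genes at -0.20 against -0.06.

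Leaving out each mouse in turn gave 0 to 3988 called genes, 0 to 2 neuropeptide genes, 0 to 3 of the other precursors, 0 to 5 receptors, 0 to 5 processing genes, 0 to 1 interneuron genes and 0 to 4 striatal genes. The highest of each came without KO replicate 1. The log2 fold change ranged from 0.76 to 1.61 in Cck, 0.77 to 1.29 in Tac2, 0.29 to 0.68 in Npy, 0.02 to 0.84 in Sst, 0.23 to 0.62 in Penk, -0.024 to 0.15 in Pdyn, -0.35 to -0.04 in Tac1, -0.32 to 0.057 in Adcyap1, -0.66 to -0.15 in Nts and -0.66 to -0.04 in Vip. Pdyn turned to -0.024 without WT replicate 2 and to -0.090 with upper-quartile factors, and Adcyap1 to 0.02 without KO replicate 2 and 0.057 without KO replicate 3.

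The GC and length offset called 4 genes in edgeR, 9 with the replicate block and 523 in DESeq2, with 0 neuropeptide genes in each and 1 processing gene in the last, and it left 0 of the 10 without overlap between genotypes. The values that reversed, in the order edgeR, edgeR with the block and DESeq2, were -0.26, -0.26 and -0.26 in Npy, -0.60, -0.59 and -0.60 in Sst, 0.29, 0.27 and 0.29 in Vip, 0.20, 0.20 and 0.20 in Tac1, -0.23, -0.23 and -0.23 in Pdyn, 0.30, 0.29 and 0.30 in Adcyap1 and 0.081, 0.077 and 0.081 in Nts. Of 190 values over the 10 genes and all alternatives, 153 kept their sign and their side of the p threshold, 25 took the other sign and 12 passed the p threshold. Cck, Tac2 and Penk kept their sign in all. With the offset in edgeR, however, Cck was at 0.17 (SE 0.17) and Penk at 0.0054 (SE 0.14), with intervals that include 0. The cause of these changes was not tested.

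Same-numbered mice of the genotypes are different animals, and their deviations from the genotype means correlated at -0.639, -0.652 and -0.142. Those of mice with different numbers correlated at -0.094 to 0.626. With 3 mice per genotype these values cannot decide whether any mice were handled together. The replicate block called 7 genes and 0 of the 10, with 1.19 in Cck (adjusted p = 0.129) and 1.03 in Tac2 (adjusted p = 0.158). Each of the 10 genes had at least 227 reads in each library, and in genes whose WT mice lay close together, such as Nts and Adcyap1, counting error was not small beside their spread. The coefficient of variation over the KO mice was 55.6% in Cck and 53.7% in Sst, and 21.6% and 22.3% after the offset.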
